A study of Mus musculus with 48 samples.

Results

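Cells that burn fuel in mitochondria leak superoxide, and a small set of enzymes disposes of it in steps. Superoxide dismutases turn superoxide into hydrogen peroxide, and catalase, glutathione peroxidases and peroxiredoxins turn the peroxide into water. The transcription factor NRF2, encoded by Nfe2l2, is held down by its partner KEAP1 and, when released, switches on detoxifying genes such as Nqo1 and Hmox1 through antioxidant response elements. Sod3 and Gpx3 are secreted, and the others act inside the cell. The 10 antioxidant defence genes described here were chosen by name: the 3 superoxide dismutases Sod1, Sod2 and Sod3, catalase (Cat), the peroxidases Gpx1, Gpx3 and Prdx3, and the NRF2 arm of Nfe2l2, Nqo1 and Hmox1. They are 10 of 54532 genes in the count table, and all 10 passed the filter on low counts, as did 19977 genes in all.

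The study compared subcutaneous white fat (sWAT, the inguinal depot) of C57BL/6 mice (C57BL/6J in the study's text), 8 months old, on 2 feeding schedules. Ad-lib mice ate freely. TAN (twice-a-night) mice ate only within a pair of fixed windows of the dark phase. Bulk RNA-seq was made at 6 clock times, labelled 8 AM, 12 PM, 4 PM, 8 PM, 12 AM and 4 AM, with 4 libraries for each diet and time, 48 in all, and each library was treated as a separate sample. The study's methods describe male, age- and weight-matched littermates in group housing, and TAN mice that ate somewhat less in total than ad-lib mice, so schedule and intake cannot be told apart. The series calls the material a stromal vascular fraction and the study's methods call it whole fat, and the adipocyte markers were above 0 in every library. Levels are given as CPM, a gene's counts relative to the library total scaled with TMM factors, and n = 4 libraries in each group. A gene was called when its Benjamini-Hochberg adjusted p over the 19977 genes in edgeR's quasi-likelihood test was under 0.05.

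Library totals ran from 15685080 to 25440243 counts in TAN and from 15636378 to 29913310 in ad-lib mice, and Nqo1 had the fewest counts of the members, down to 7 in 1 TAN library at 8 PM. In another table of the same libraries from the study, all 48 libraries appear under a time 12 h apart from the label used here, and 0 appear under the same time. Every comparison between diets holds the same animals under either labelling, but the clock position does not. Under the labels used here Dbp, a clock output gene, was highest at 4 PM in both diets (102 ± 19.9 CPM in ad-lib and 154 ± 58.0 in TAN, SD, n = 4), and Arntl, the clock activator, was highest at 8 AM (32.3 ± 9.59 and 46.0 ± 4.60). Libraries also differed in the RNA of other cells. Summed CPM of 10 lymphocyte markers ran from 8.11 to 2039, and that of 8 adipocyte markers from 5083 to 51379. The 2 TAN libraries at 8 PM with the lowest adipocyte markers, replicates 1 and 2 (8380.3 and 5083), were left out in an alternative chosen after seeing the data.

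Promoter sequences for 8 of the 10 members were found in RefSeq (GRCm38.p6, 250 bases before to 50 bases after the annotated start), and those for Sod3 and Hmox1 were not. Sod1, Sod2 and Prdx3 are shown because they moved together most closely across the libraries, and Nfe2l2 because it encodes the factor that reads the antioxidant response element. Capitals mark matches to TGACNNNGC, the core of that element, on either strand.
Sod1, chr16:90220512-90220811, plus strand: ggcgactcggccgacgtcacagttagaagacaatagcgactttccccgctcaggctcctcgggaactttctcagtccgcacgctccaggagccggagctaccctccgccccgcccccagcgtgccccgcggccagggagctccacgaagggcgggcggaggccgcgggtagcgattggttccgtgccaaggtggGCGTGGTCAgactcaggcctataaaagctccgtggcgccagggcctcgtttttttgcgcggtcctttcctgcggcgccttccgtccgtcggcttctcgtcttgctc
Sod2, chr17:13007589-13007888, plus strand: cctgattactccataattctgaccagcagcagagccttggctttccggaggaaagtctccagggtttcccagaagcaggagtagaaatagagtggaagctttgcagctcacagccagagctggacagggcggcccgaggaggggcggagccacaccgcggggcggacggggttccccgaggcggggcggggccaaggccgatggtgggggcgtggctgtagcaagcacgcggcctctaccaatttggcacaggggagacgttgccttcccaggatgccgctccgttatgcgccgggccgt
Prdx3, chr19:60874489-60874788, minus strand: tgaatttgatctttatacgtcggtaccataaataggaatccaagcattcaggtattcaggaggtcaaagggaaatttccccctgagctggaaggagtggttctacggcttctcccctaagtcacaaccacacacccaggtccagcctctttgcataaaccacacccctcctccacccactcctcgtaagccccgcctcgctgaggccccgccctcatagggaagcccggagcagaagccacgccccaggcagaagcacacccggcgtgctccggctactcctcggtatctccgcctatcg
Nfe2l2, chr2:75704874-75704913, minus strand: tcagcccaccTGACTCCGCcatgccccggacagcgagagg
Sod1 held 1 match, 56 bases before the start and on the opposite strand, and Nfe2l2 held 1, 240 bases before the start and on its own strand. The other 6 promoters held none in this window, Nqo1 among them, and 12.4% of the 32851 promoters in the table held at least 1. Sequence further from the start was not searched, so elements there would be missed. None of the 8 held CACGTG, the E-box of the clock (7.15% of promoters), TTANGTAA, the D-box read by Dbp, Hlf and Tef (2.32%), or AAGGTCA, a nuclear receptor half-site (4.72%). Each motif was searched on both strands, and no 2 matches overlapped.

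The authors' mean FPKM is scaled for length, and the order of the members depends on the lengths used. The annotated gene lengths were 3970 bases for Sod1, 10008 for Sod2 and 1478 for Prdx3. A transcript shorter than its annotated gene length gets too low an FPKM, so the order below is approximate. Gpx3 was highest, with group means from 423 to 1091 FPKM, followed by Gpx1 (364 to 659) and Cat (227 to 506). Sod1 (104 to 245) and Prdx3 (101 to 277) had nearly the same range. Sod3 (23.5 to 49.2), Hmox1 (16.5 to 28.7), Sod2 (13.5 to 43.7) and Nfe2l2 (15.5 to 23.5) overlapped, and Nqo1 was lowest (2.95 to 9.02). No error goes with these values, because only the means over 4 libraries are given.

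**Figure D1:**
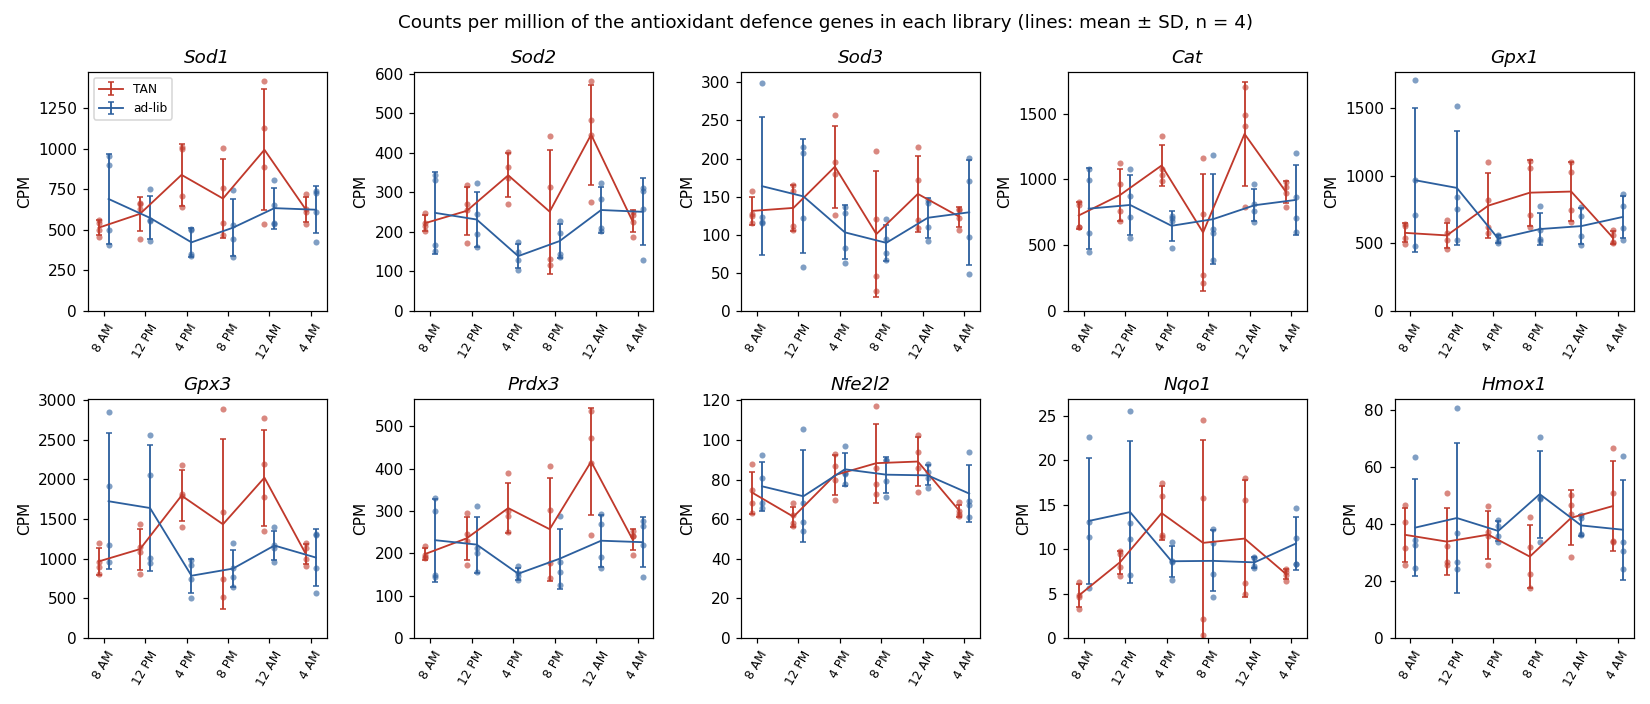
CPM (y axis) of each of the 10 antioxidant defence genes at the 6 labelled times (x axis), in TAN (red) and ad-lib (blue) mice; each point is 1 library, and lines and bars give the mean ± SD of 4 libraries. For Sod1, Sod2, Gpx3 and Prdx3 the TAN points lie above all ad-lib points at 4 PM, and Nfe2l2 and Hmox1 show no such gap.

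The clearest difference between the diets was at the label 4 PM. Sod1, Sod2, Gpx3 and Prdx3 were all higher in TAN mice, by log2 fold changes of 0.99 to 1.31, and they encode the cytosolic and the mitochondrial dismutase, a secreted peroxidase and the mitochondrial peroxiredoxin. These 4 of 10 members were called, all higher in TAN, at a time when 15.3% of all genes were called and 6.54% were called higher in TAN. The median log2 fold change was 0.826 over the 10 members and −0.086 over all genes tested.

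Sod2, the manganese dismutase of the mitochondrial matrix, was at 402, 270.1, 335 and 364 CPM in the 4 TAN libraries at 4 PM and at 148, 173, 104 and 129 CPM in the ad-lib libraries. The lowest TAN library was well above the highest ad-lib library. Its log2 fold change was 1.31 ± 0.32 (standard error), with an adjusted p of 0.012 in edgeR's quasi-likelihood test. Prdx3, the peroxiredoxin of the same compartment, stood at 389, 250.2, 289 and 299.8 CPM in TAN and at 170.0, 153, 138 and 147 CPM in ad-lib mice. The groups were again apart, with a log2 fold change of 1.02 ± 0.29 and an adjusted p of 0.0223 in the same edgeR test. Sod1, the copper and zinc dismutase of the cytosol, was at 1011, 637, 995 and 709 CPM against 498, 503, 339 and 347 CPM. Here too no libraries overlapped, and the log2 fold change was 0.99 ± 0.28, with an adjusted p of 0.0213 in the edgeR test. The 3′ end of Sod1 overlaps Scaf4 on the other strand, and the strandedness of the counts is not stated, so reads in that overlap cannot be assigned.

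Gpx3, the secreted glutathione peroxidase and the most abundant member, was at 1789, 1393, 2173 and 1818 CPM in TAN and at 737, 979.5, 505 and 915 CPM in ad-lib libraries at 4 PM. All TAN values were above all ad-lib values. The log2 fold change was 1.19 ± 0.38, with an adjusted p of 0.0311 in edgeR's test. Gpx1, its cytosolic relative, was at 818, 616, 1102 and 576 CPM against a tight 554, 562, 518 and 498 CPM. The groups did not overlap, but the gap was narrow, and the log2 fold change of 0.55 ± 0.28 was not called (edgeR adjusted p 0.175).

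Catalase, the peroxide-splitting enzyme of peroxisomes, was at 1327, 1035, 984 and 1075 CPM in TAN and at 707, 684, 476 and 719 CPM in ad-lib mice. The libraries did not overlap, yet the log2 fold change of 0.77 ± 0.35 was not called (edgeR adjusted p 0.117). Cat was called in a separate fit of 4 PM (0.72, edgeR adjusted p 0.0196) and without the 2 TAN libraries of 8 PM named above (0.77, 0.0476). Those fits called 4408 and 4398 genes in all at 4 PM, in that order. Sod3, the extracellular dismutase, was at 125, 257, 196 and 179 CPM against 83.0, 137, 63.3 and 129 CPM, with 1 TAN library inside the ad-lib range and a log2 fold change of 0.88 ± 0.43 that was not called (edgeR adjusted p 0.142). The separate fit of 4 PM called Sod3 too (0.82, edgeR adjusted p 0.0459). In all, 7 of the 10 members had no overlap between the diets at 4 PM, where 30.6% of all genes tested had none.

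None of the 3 genes of the NRF2 arm was called at 4 PM. Nfe2l2 was at 79.7, 87.1, 69.6 and 92.7 CPM in TAN and at 97.2, 82.8, 77.6 and 83.1 CPM in ad-lib libraries at 4 PM, fully overlapping, with a log2 fold change of −0.05 ± 0.17 (edgeR adjusted p 0.873). Hmox1, which encodes heme oxygenase 1, gave −0.05 ± 0.33 (edgeR adjusted p 0.939), from 37.2, 36.0, 46.4 and 25.7 CPM against 39.2, 33.8, 41.6 and 35.9 CPM. Nqo1, the quinone reductase that is used as an NRF2 readout, was at 15.9, 11.3, 17.4 and 11.6 CPM against 10.8, 8.66, 8.56 and 6.54 CPM. Its libraries did not overlap, but its log2 fold change of 0.70 ± 0.56 was not called (edgeR adjusted p 0.398). Whether the 4 called genes differed from these 3 was not tested.

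**Figure D2:**
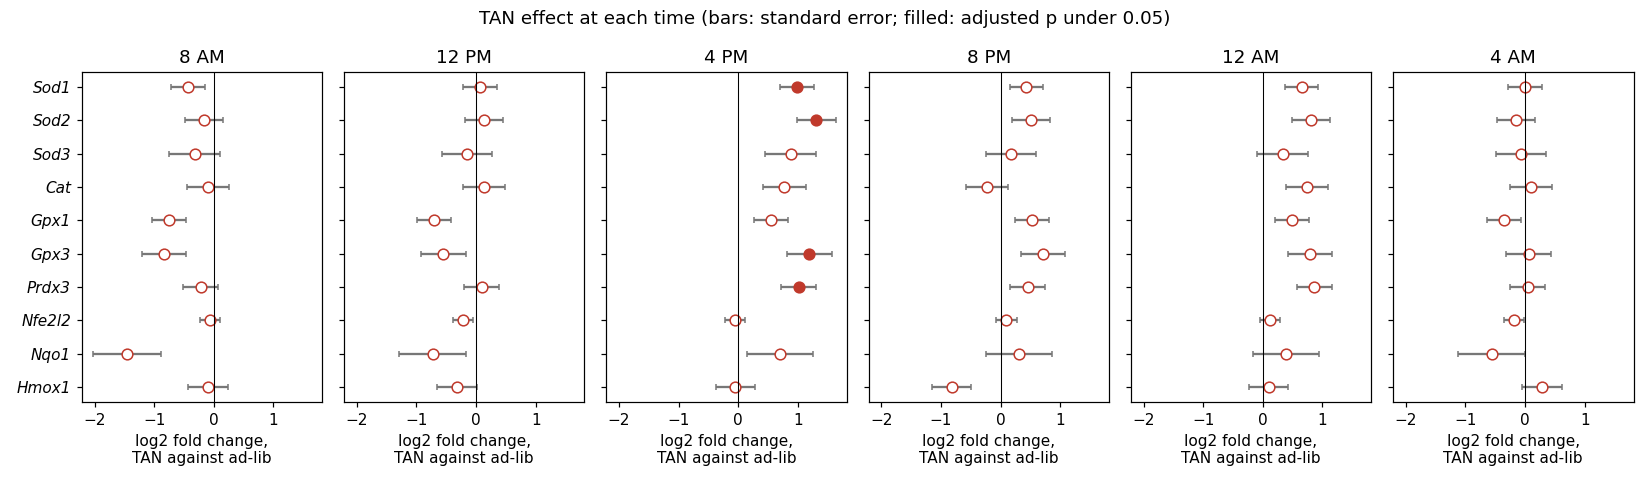
Log2 fold change of TAN against ad-lib (x axis) for each member (y axis) at each labelled time (panels), with bars for the standard error and filled points for an adjusted p under 0.05. Filled points occur at 4 PM for Sod1, Sod2, Gpx3 and Prdx3; at 8 AM all 10 points lie below 0 and at 12 AM all 10 lie above it.

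At 4 PM the tissue samples differed in other cell markers as well. All 10 lymphocyte markers had lower values in TAN, with no overlap, and 3 were called lower. Their summed level was 9.08 to 283 CPM in TAN against 828 to 1420 CPM in ad-lib libraries, and 1 of them, Cd5, was at 0 in at least 1 TAN library. All 8 adipocyte markers had higher values in TAN (2 called, median log2 fold change 1.07), and their summed level was 30871 to 51379 CPM against 12932 to 18760 CPM. In bulk tissue, fewer cells of a type and less RNA per cell cannot be told apart. The share of counts on TEC loci, a biotype of transcripts still to be tested experimentally, also separated the diets, at 0.0327 to 0.0847% in TAN against 0.0882 to 0.110% in ad-lib libraries. With the mean lymphocyte marker level as a covariate, 0 of the 10 members and 0 of all genes were called at 4 PM, 2 members had an unadjusted p under 0.05, and Sod2 had a log2 fold change of 0.71 (edgeR adjusted p 0.302). With the adipocyte marker level as a covariate, an alternative chosen after seeing the data, the 4 called members kept 0.45 to 0.65 (Prdx3 0.45, Gpx3 0.46, Sod1 0.56, Sod2 0.65) while Cat went to −0.02, with edgeR adjusted p from 0.078 upward. That fit called 0 members and 68 genes in all at 4 PM. With the TEC share as a covariate 0 members and 73 genes in all were called at 4 PM, and 2 members had an unadjusted p under 0.05. With the lymphocyte and TEC covariates together 0 members and 0 genes in all were called, and 1 member had an unadjusted p under 0.05. The log2 fold changes of the 4 genes were then close to 0 for Sod1 (0.10), Gpx3 (0.01) and Prdx3 (0.06) and 0.29 for Sod2. The share of all genes at an unadjusted p under 0.05 is not given for these covariate fits. No TAN library at 4 PM had a lymphocyte marker level above 400 CPM, so the diets could not be compared there among libraries of like lymphocyte content, and the diet and these differences in tissue content cannot be told apart.

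The calls at 4 PM also depended on single replicates, among the members and among all genes. Leaving out ad-lib replicate 3 at every time, which had the lowest Sod1, Sod2, Gpx3 and Prdx3 at 4 PM, took the called members from 4 to 0, with Sod2 at 1.12 (edgeR adjusted p 0.0528). Without TAN replicate 1 only Sod2 was called, and without TAN replicate 3 only Sod2 and Prdx3. All genes called at 4 PM fell from 3057 to 878, 694 and 1448 in these fits, in that order.

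The mitochondrial marker genes moved beside Sod2 and Prdx3. Of 7 genes for respiratory chain subunits and membrane proteins, 6 were called higher in TAN at 4 PM (median log2 fold change 1.004), beside 6.54% of all genes. They were led by Cycs, cytochrome c, at 1.64 ± 0.32 (edgeR adjusted p 0.00618), and Ndufb8, a subunit of complex I, at 1.298 ± 0.32 (0.0113). Tomm20, of the outer membrane import complex, was the exception at 0.58 ± 0.25 (0.0917). Sod2 at 1.31 and Prdx3 at 1.02 lay inside the range of these 7. Over the 48 libraries, Pearson's r of log2 CPM with the mean mitochondrial marker level was 0.964 for Prdx3, 0.949 for Sod1 and 0.949 for Sod2, and 0.955, 0.941 and 0.951 after subtracting group means. These are descriptions over libraries that share their depth and cell content. For Cat r was 0.708 with the mitochondrial markers and 0.925 with the adipocyte markers. With the adipocyte markers r was 0.838 for Sod2, 0.76 for Prdx3 and 0.67 for Sod1, so these genes followed both lists.

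The genes most like each member over the 48 libraries were named by the same correlation. Sod2 was closest to Mdh1 (Pearson's r 0.976), Ndufab1 (0.963) and Dld (0.960), which encode a malate dehydrogenase, a mitochondrial acyl carrier and the E3 subunit of mitochondrial dehydrogenase complexes. Prdx3 was closest to Cisd1 (0.966), Ndufa9 (0.965) and Atp5a1 (0.964), and Sod1 to Naxe (0.961), Chchd2 (0.956) and Atp5c1 (0.955). The nearest to Cat were Pgm2 (0.954), Pgrmc2 (0.951) and 4931406C07Rik (0.950), and Sod3 was nearest to Twist1 (0.926), Fbxw8 (0.918) and Plin1 (0.914), the last a lipid droplet coat protein. For Gpx3 the nearest were Vegfb (0.923), Slc48a1 (0.913) and 4833439L19Rik (0.909), and for Gpx1 they were Nenf (0.922), Yipf4 (0.913) and Akr1a1 (0.91). Nqo1 was nearest to Hrct1 (0.900), Slc35f5 (0.892) and Aph1b (0.886).

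Among the members themselves, the tightest pairs were Sod2 with Prdx3 (r 0.952), Sod1 with Prdx3 (0.943) and Sod1 with Sod2 (0.908). Hmox1 stood apart, with r of −0.061 to the adipocyte markers and 0.557 to the macrophage markers, and its nearest genes were Cyp1b1 (0.718), Cma1 (0.684), a mast cell protease, and Psap (0.682), a lysosomal protein.

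**Figure D3:**
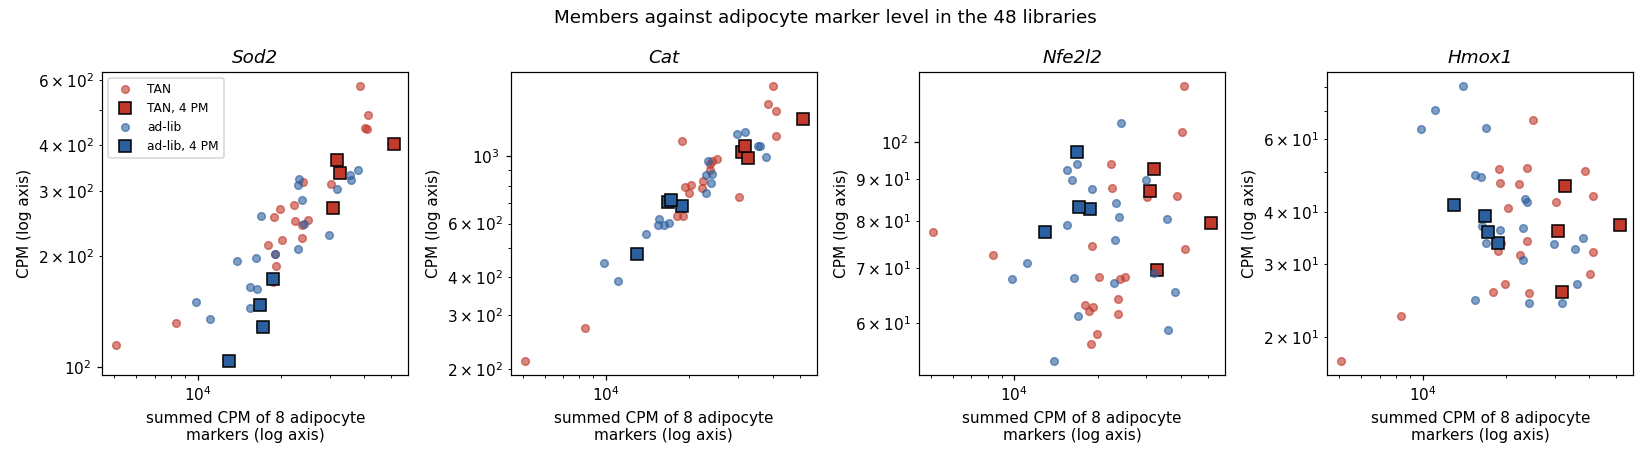
CPM of Sod2, Cat, Nfe2l2 and Hmox1 (y axis, log scale) against the summed CPM of 8 adipocyte markers (x axis, log scale) in the 48 libraries, TAN in red and ad-lib in blue, with squares for 4 PM. Sod2 and Cat climb with the adipocyte markers in both diets, the 4 TAN squares sitting to the right of the 4 ad-lib squares, whereas Nfe2l2 and Hmox1 do not follow them.

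Many other genes of the system were also higher in TAN at 4 PM. Of 43 tested antioxidant genes beyond the 10 (Mt2 was below the filter), 20 were called higher and 2 lower in TAN, with a median log2 fold change of 0.632. Of all genes, 6.54% were called higher in TAN at 4 PM. With the lymphocyte covariate 0 of all genes were called at 4 PM, these included, and with the TEC share 73 in all. Of 13 glutathione genes, 8 were called higher, led by Gsta4, a transferase that clears lipid peroxidation products (1.77 ± 0.42, edgeR adjusted p 0.00994), Gpx4, the peroxidase that guards membrane lipids (1.42 ± 0.36, 0.0139), Gpx7 (1.22 ± 0.39, 0.0331) and Gstm1 (1.13 ± 0.39, 0.0441). Of 14 peroxiredoxin and thioredoxin genes, 9 were called higher, led by Prdx6 (1.21 ± 0.32, 0.0156), Prdx5 (1.16 ± 0.34, 0.0231), Srxn1, which reactivates oxidised peroxiredoxins (1.09 ± 0.35, 0.0348), and Msra, a methionine sulfoxide reductase (1.09 ± 0.29, 0.0156). Several of these families have near-identical copies in the genome, so reads may be split among them in ways the counting does not state.

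Of 13 NRF2 regulators and targets, 1 was called higher and 1 lower at 4 PM, beside the 15.3% of all genes called (median log2 fold change 0.261). An unadjusted edgeR p under 0.05 was found for 7 of the 13, beside 6636 of the 19977 genes. Fth1, the ferritin heavy chain, was at 0.96 ± 0.32 (edgeR adjusted p 0.0394) and Bach1, a repressor that competes with NRF2 at its sites, fell by 0.57 on the log2 scale (0.0483). Keap1 (0.07 ± 0.25, 0.885) and the cystine transporter gene Slc7a11 (−3.19 ± 1.24, 0.0687) were not called. Of 3 metal-handling genes, Mt1, a metallothionein (1.02 ± 0.35, 0.0418), and Atox1, a copper chaperone (0.98 ± 0.26, 0.015), were called higher, and Ccs, the copper chaperone of Sod1, was not. Of 7 oxidant-producing enzymes 4 had higher values in TAN at 4 PM, with a median log2 fold change of 0.3. Only 2 of the 7 were called, both lower, beside 1751 of the 19977 genes called lower. They were the phagocyte oxidase genes Cybb (−2.40 ± 0.62, edgeR adjusted p 0.0144) and Ncf1 (−2.59 ± 0.80, 0.0293). The macrophage markers also had lower values in TAN at 4 PM, in 8 of 8 genes, with 2 called.

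**Figure D4:**
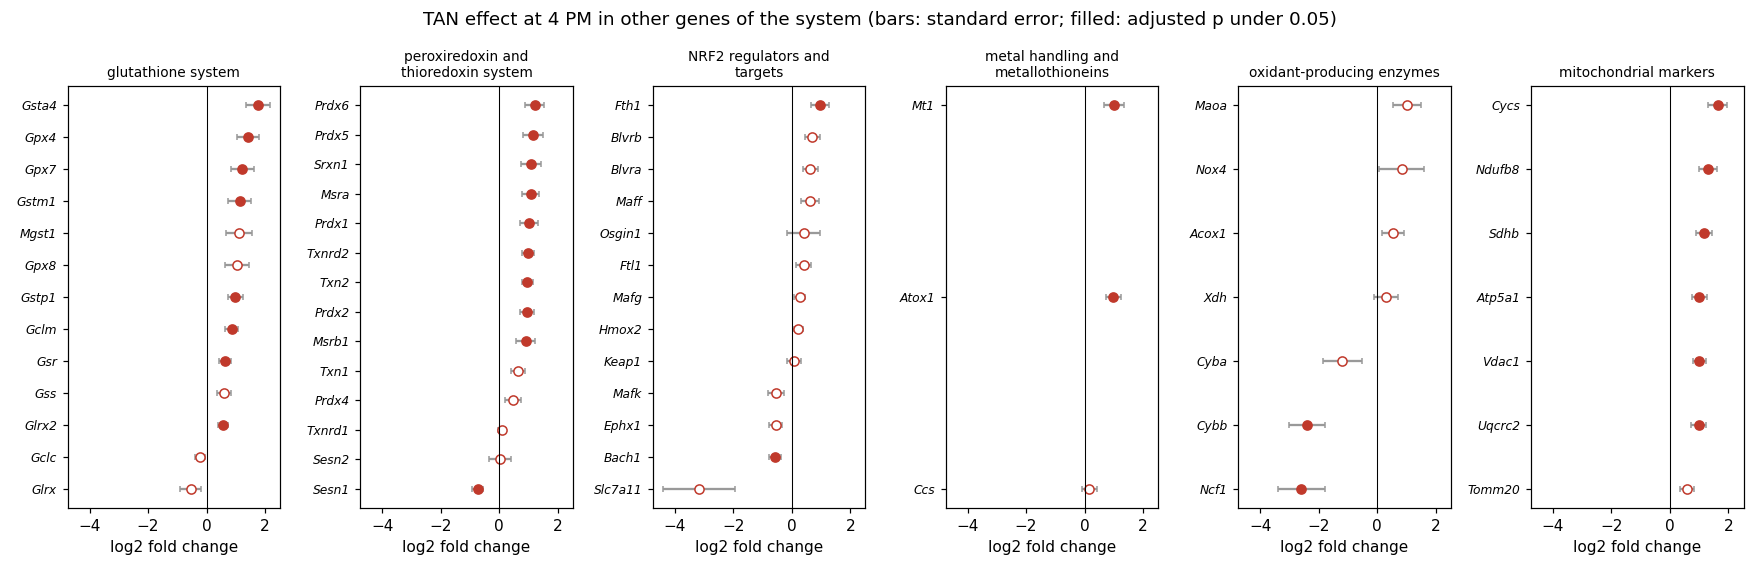
Log2 fold change of TAN against ad-lib at 4 PM (x axis) for other genes of the antioxidant system, oxidant-producing enzymes and mitochondrial markers (y axis), with bars for the standard error and filled points for an adjusted p under 0.05. Most glutathione and peroxiredoxin genes lie right of 0, the NRF2 list is spread around 0, and Cybb and Ncf1 lie far to the left.

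At 8 PM, when 11.7% of all genes were called, 0 of the 10 members were called by edgeR, limma voom or DESeq2. An unadjusted edgeR p under 0.05 was found for 5587 of the 19977 genes and for 1 member. That member was Hmox1, at 22.5, 17.5, 42.4 and 32 CPM in TAN against 70.7, 48.7, 49.2 and 33.6 CPM in ad-lib mice, a log2 fold change of −0.82 ± 0.33 (edgeR adjusted p 0.0952). The TAN libraries disagreed among themselves. Cat was at 272 and 212 CPM in replicates 1 and 2 and at 735 and 1164 CPM in replicates 3 and 4, and Gpx3 was at 741, 518, 1588 and 2883 CPM. Nqo1 was at 0.354 and 2.13 CPM in the first pair and at 24.6 and 15.8 CPM in the others. Replicates 1 and 2 had the lowest adipocyte and the highest lymphocyte marker levels (1886 and 2039 CPM) of the 4. Leaving both out, Sod2 (log2 fold change 1.10, edgeR adjusted p 0.0257) and Gpx3 (1.35, 0.0195) were called higher at 8 PM, beside 2345 genes in all. With the adipocyte markers as a covariate, 5 members were called higher at 8 PM, from Sod2 at 0.54 (0.0193) to Gpx3 at 0.69 (0.00955). That fit called 4992 of the 19977 genes at 8 PM. Fits with the TEC share called members lower in TAN at 8 PM, of which Hmox1 was lower without a covariate as well. With the share of counts on TEC loci Hmox1 was called lower in TAN (−1.54, edgeR adjusted p 0.0399), and with the lymphocyte and TEC covariates together Hmox1 (−1.37, 0.019) and Gpx1 (−0.58, 0.0399) were called lower, Gpx1 having turned from 0.53 without a covariate. Those fits called 208 and 1191 genes in all at 8 PM, in that order. Among the other antioxidant genes 6 were called higher and 2 lower at 8 PM. Those lower were Bach1 (−0.86 ± 0.20, 0.00751) and the NRF2 target Osgin1 (−1.99 ± 0.58, 0.0236), and the small MAF partner Maff was among those higher (1.13 ± 0.32, 0.022).

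At 12 AM all 10 members had higher mean values in TAN, by a median log2 fold change of 0.572, against 8481 of 19977 genes with a positive value and a median of −0.136. None was called by edgeR, limma voom or DESeq2, at a time when 0.15% of all genes were called. At an unadjusted edgeR p under 0.05 there were 5 members, beside 3492 of the 19977 genes. Prdx3 came nearest, at 243, 537, 473 and 414 CPM against 269.8, 294, 166 and 190.3 CPM, with a log2 fold change of 0.86 ± 0.29 (edgeR adjusted p 0.153). Sod2 was at 276, 580.4, 482 and 445 CPM against 283, 324, 203 and 209 CPM (0.81 ± 0.32, edgeR adjusted p 0.196), and Cat at 788, 1487, 1404 and 1704 CPM against 815, 963, 677 and 756 CPM (0.75 ± 0.35, 0.264). In all 3 genes TAN replicate 1 was inside the ad-lib range and the other 3 TAN libraries were above it. That replicate held the most lymphocyte marker RNA of the 4 (1199 CPM, against 10.3, 304 and 13.3 CPM) and the least adipocyte marker RNA (22308 CPM, against 38612 to 41168 CPM). With the lymphocyte covariate the log2 fold changes at 12 AM were 0.44 for Prdx3, 0.34 for Sod2 and 0.19 for Cat, and with the adipocyte covariate they were 0.57, 0.46 and 0.32. Among libraries above 400 CPM of lymphocyte markers, which leave 1 TAN library at that time, they were 0.09, 0.13 and −0.01.

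At 8 AM the signs were the other way. All 10 members had lower mean values in TAN, by a median log2 fold change of −0.269, where 10153 of 19977 genes were positive. None was called by edgeR, limma voom or DESeq2, with 0.015% of all genes called. At an unadjusted edgeR p under 0.05 there were 3 members, beside 1314 of the 19977 genes. Nqo1 was at 4.89, 4.62, 6.35 and 3.23 CPM in TAN and at 11.3, 5.62, 13.1 and 22.6 CPM in ad-lib mice (−1.46 ± 0.57, edgeR adjusted p 0.682). Gpx3 was at 897, 1200.1, 957 and 801 CPM against 1920.2, 953, 1170.2 and 2845 CPM (−0.84 ± 0.37, 0.713), and Gpx1 at 627, 643, 537 and 497 CPM against 968, 480.4, 709 and 1704 CPM (−0.74 ± 0.29, 0.682). The ad-lib libraries were far more spread than the TAN libraries. Ad-lib replicates 1 and 4 were highest for Sod1, Sod2, Gpx3 and Prdx3, and they had lymphocyte marker levels of 269 and 30.0 CPM and the highest adipocyte marker levels of that group. The signs did not hold under each alternative. With the lymphocyte covariate Sod2 (0.12), Sod3 (0.06), Cat (0.21) and Prdx3 (0.04) were positive at 8 AM, and among libraries above 400 CPM of lymphocyte markers, which drop ad-lib replicates 1 and 4, Sod1 (0.17), Sod2 (0.48), Sod3 (0.17), Cat (0.48) and Prdx3 (0.42) were. All 5 erythrocyte markers also had lower values in TAN at an unadjusted p under 0.05 (0 called, median log2 fold change −2.12), with a summed level of 331 to 583 CPM against 347 to 4019 CPM, and their part in the result was not tested.

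At 12 PM, with 0.0901% of all genes called, 4 members were positive and 6 negative (median −0.189). None was called by any of the 3 tools, and Gpx1 alone had an unadjusted edgeR p under 0.05 (−0.71 ± 0.29, adjusted p 0.594), from 672, 577, 456 and 526 CPM against 1512, 843, 755 and 526 CPM. An unadjusted edgeR p under 0.05 was found for 1473 of the 19977 genes at 12 PM. At 4 AM the members were evenly split around a median of −0.032, none had an unadjusted p under 0.05, and 0% of all genes were called by edgeR (527 genes had an unadjusted p under 0.05, and DESeq2 called 1 gene and limma voom 0). Nqo1 was then the 1 member without overlap, at 6.42 to 7.80 CPM in TAN against 8.31 to 14.6 CPM in ad-lib mice, where 3.09% of all genes had none.

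Tested over the 6 times together, the TAN effect varied with time for Gpx1 (edgeR adjusted p 0.0296) and Gpx3 (0.0342), 2 of 10 members against 8.98% of all genes. Both glutathione peroxidases had lower means in TAN at 8 AM and 12 PM and higher means at 4 PM, 8 PM and 12 AM. Sod2 (0.084), Sod1 (0.087) and Prdx3 (0.126) were not called. Of the 8 fits that each left out 1 replicate number of 1 diet, 2 called Gpx1 (without ad-lib replicate 2 or 4) and 1 called Gpx3 (without ad-lib replicate 2), with adjusted p up to 0.203 and 0.193 without TAN replicate 3. Gpx1 and Gpx3 were not called with the lymphocyte or TEC covariates, alone or together. Without the 2 TAN libraries of 8 PM named above, 6 members were called, beside 3772 genes in all. Averaged over the 6 times, 0 members were called by edgeR, where 5.42% of all genes were called. Sod2 (0.41 ± 0.13, edgeR adjusted p 0.0547) and Prdx3 (0.37 ± 0.12, 0.0544) came just short, 3 members had an unadjusted p under 0.05, DESeq2 called these 2 and limma voom 0. Without the 2 TAN libraries of 8 PM, 4 members were called, beside 2667 genes in all.

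Within TAN mice, levels varied over the day for 2 of 10 members, Nfe2l2 (edgeR adjusted p 0.0393) and Prdx3 (0.0447), where 23% of all genes were called, so the members' share was not above the background. Of the 8 fits that each left out 1 replicate number, 2 called Prdx3 and 3 called Nfe2l2, and neither was called without any 1 of the TAN replicates. With the lymphocyte covariate 0 members were called (2 at an unadjusted p under 0.05), and without TAN libraries 1 and 2 of 8 PM, 6 were. Those fits called 3593 and 3991 genes in all, in that order. Prdx3 was lowest at 8 AM (199 ± 13.6 CPM, SD, n = 4) and highest at 12 AM (417 ± 126). Sod2 ran from 222 ± 19.5 CPM at 8 AM to 446 ± 127 at 12 AM (0.0533), and Gpx3 from 964 ± 170 to 2019 ± 606 at the same times (0.0854). A 24-h cosine curve was called for Gpx1 (0.0355) and Nfe2l2 (0.0302), with 19.8% of all genes, and their fitted peaks were at clock hours 20.4 and 20.8. The curve was called for 0 members with the lymphocyte covariate (4590 genes in all) and for 7 without the 2 TAN libraries of 8 PM (5658 genes in all). Sod1, Sod2, Cat, Gpx1, Gpx3, Prdx3 and Nfe2l2, 7 of the 10, had their highest TAN mean at 12 AM, while Sod3 and Nqo1 were highest at 4 PM and Hmox1 at 4 AM.

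Within ad-lib mice 0 members were called by edgeR for variation over time (0.0551% of all genes) or for the 24-h curve (0.0801%), and limma voom and DESeq2 also called 0 for either. At an unadjusted edgeR p under 0.05 there were 2 for variation, Gpx1 and Gpx3, and 4 for the curve, Sod1, Sod2, Gpx1 and Gpx3. For 7 members the lowest ad-lib mean was at 4 PM, Sod1, Sod2, Cat, Gpx1, Gpx3, Prdx3 and Hmox1. Prdx3 had 152 ± 13.7 CPM at 4 PM and 231 ± 97.9 at 8 AM in ad-lib mice, and Gpx3 had 784 ± 213 and 1722 ± 856. Whether the daily course itself differs between the diets is what the interaction above tested.

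Nfe2l2 had the smallest daily range of the members in TAN mice. In TAN mice it was lowest at 12 PM, at 56.6, 58.2, 62.1 and 68.0 CPM, and highest at 12 AM, at 93.9, 85.9, 73.9 and 103 CPM. The libraries of these times did not overlap, although the means differed by only 1.46-fold. These times were picked as those of the lowest and highest TAN mean, which favours a gap between them. The share of all genes without overlap between their own lowest and highest times is not given, so no conclusion is drawn from the gap. The Nfe2l2 values at 4 AM in TAN mice, 68.4, 62.7, 61.6 and 64.3 CPM, were again low. In ad-lib mice its means ran from 71.6 ± 23.3 CPM at 12 PM to 85.2 ± 8.39 at 4 PM, with overlapping libraries, and the TAN effect was not called at any time (log2 fold changes from −0.23 to 0.12). Its correlation with the adipocyte markers was 0.239 and with the mitochondrial markers 0.065. The 3 genes most like it over the 48 libraries were Bhlhe41 (r 0.710), Hlf (0.701) and Tef (0.682), a clock repressor and a pair of clock-controlled factors that bind the D-box.

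These 3 genes had a far larger daily range than Nfe2l2. In TAN mice Hlf rose from 19.3 ± 5.99 CPM at 12 PM to 76.6 ± 19.8 at 4 PM, and Tef from 82.3 ± 10.5 at 8 AM to 338 ± 78.6 at 4 PM. The 24-h curves of Hlf and Tef were called in TAN (edgeR adjusted p 0.000158 and 5.87e-05) and not in ad-lib mice (0.187 and 0.144). Their fitted TAN peaks were at clock hours 19.9 and 19.4, against 20.8 for Nfe2l2. Bhlhe41 ran from 7.45 ± 2.98 CPM at 4 AM to 54.5 ± 27.2 at 4 PM in TAN. Its curve was called in TAN (edgeR adjusted p 0.00212), with an earlier peak at 17.4, and not in ad-lib mice (0.592). A TAN peak near that of Nfe2l2 was also fitted for Sod2 (20.8), Gpx1 (20.4) and Gpx3 (20.2), of which only the Gpx1 curve was called. The fitted amplitude was 1.13 for Hlf, 1.04 for Tef and 1.08 for Bhlhe41 on the log2 scale, against 0.24 for Nfe2l2.

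**Figure D5:**
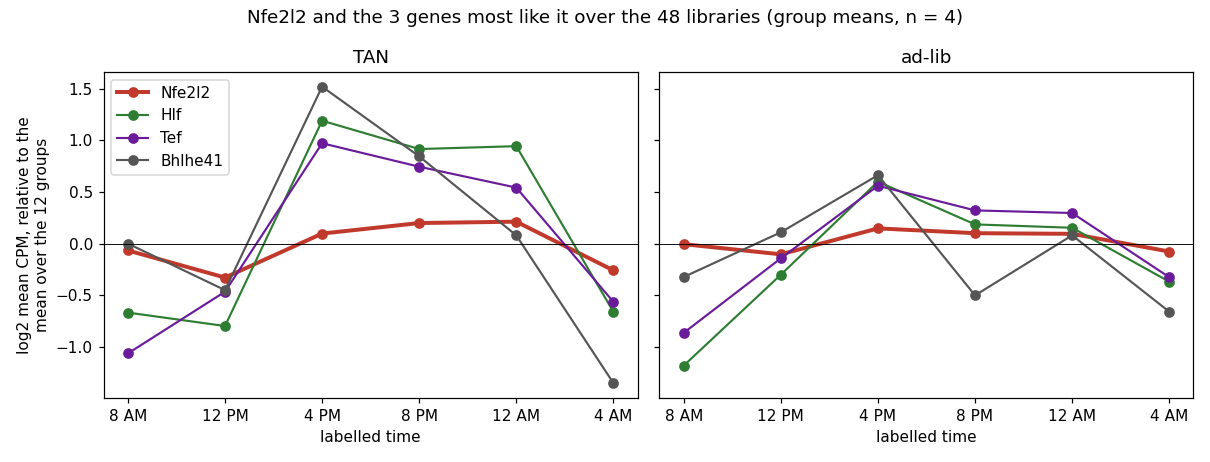
Log2 of the mean CPM at each labelled time (x axis), relative to each gene's mean over the 12 groups (y axis), for Nfe2l2 and the 3 genes most like it, in TAN (left) and ad-lib mice (right), n = 4 libraries a point. In TAN all 4 genes are below 0 at 4 AM and above it at 4 PM, 8 PM and 12 AM, with Nfe2l2 moving least.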

How the data were processed

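The authors deposited raw counts per gene for 48 sWAT libraries, 4 for each diet and time, and FPKM values averaged over the 4 libraries of a group. Per the labels, poly-A RNA was primed with random hexamers, and the submitters' processing notes name TopHat 1.3.3, DESeq2 1.20.0, limma and edgeR, and the builds mm9, mm10 and GRCm38. Which tool aligned or counted, and which libraries were directional, is not given in the sources used here. Replicates were numbered in the labels, and nothing there ties a number to a litter or day, so p-values measure the spread between these libraries.

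The counts were analysed with edgeR 4.0.16 in R 4.3.3: filterByExpr with a minimum count of 10 kept 19977 genes, TMM factors were applied, and 1 robust quasi-likelihood model of the 12 groups was fitted. Contrasts gave the TAN effect at each time, the interaction, the mean effect, the variation over time and a 24-h cosine and sine in each diet, all adjusted over the 19977 genes. Log2 CPM used a prior count of 2, and standard errors were derived from the F statistics. The procedure was tested on simulated data. Alternatives were DESeq2 1.42.0, limma 3.58.1 (voom), other size factors, no filter, marker covariates, a replicate block, a fit for each time and leaving out each replicate.

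The members and the other gene lists were chosen with earlier results of these data known. All 10 members are named. Of each other list up to 4 called genes with the largest change are named, with the mitochondrial markers beside Sod2 and Prdx3, and for each member the 3 genes with the highest Pearson's r. Genes named beyond this rule were chosen after their values were seen.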

Additional observations from a re-analysis of the deposited data

Results flagged for a closer look

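In 3 of 120 groups of 4 libraries, 1 library stood apart from the other 3 by more than Dixon's critical ratio for 4 samples, where chance flags about 1 group in 20. Sod1 in TAN replicate 3 at 12 PM was at 443 CPM, against 627 to 663 CPM in the others. Sod3 in ad-lib replicate 4 at 8 AM was at 299.8 CPM, against 115 to 123 CPM. Cat in ad-lib replicate 3 at 4 PM was at 476 CPM, against 684 to 719 CPM, and that replicate is the one whose omission ended all 4 calls at 4 PM.

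The TAN effect differed between times for Gpx1 (adjusted p 0.0296 of the interaction in edgeR) and Gpx3 (0.0342), the 2 glutathione peroxidases among the members. The interaction called 0 members with the lymphocyte, TEC or combined covariates and with the replicate block, and 2 of the 8 fits without 1 replicate number called Gpx1 and 1 called Gpx3.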

How the results depend on the processing

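The 4 calls of the TAN effect at 4 PM kept their direction in each alternative that gave a value there (no TAN library at 4 PM lay above 400 CPM of lymphocyte markers). The lymphocyte, TEC, combined and adipocyte covariates each left 0 of the 4 called, as did leaving out ad-lib replicate 3. Over all 60 combinations the calls numbered 0 with the lymphocyte covariate, 1 with TEC (Hmox1, lower at 8 PM), 2 with both (Gpx1 and Hmox1, lower at 8 PM), 7 without the 2 TAN libraries of 8 PM, 0 among libraries above 400 CPM of lymphocyte markers, and 0 to 4 when leaving out a replicate. With the adipocyte covariate they numbered 5, all at 8 PM, and with a separate fit for each time 6, all at 4 PM. For the 2 members that varied over time in TAN, the number was 1 with no filter, 4 with RLE factors, 0 with lymphocyte, 1 with TEC and 1 with both covariates, 7 with DESeq2, 5 with the adipocyte covariate, 6 without the 8 PM libraries and 0 to 4 leaving out a replicate. For the 2 members with a 24-h curve in TAN it was 1, 5, 0, 1, 1, 5, 6, 7 and 0 to 4 in the same order. In ad-lib mice both stayed at 0 throughout. The interaction, 2 members, went to 0 with each of the lymphocyte, TEC and combined covariates, 5 with DESeq2, 6 without the 8 PM libraries and 0 to 3 leaving out a replicate. The mean effect, 0 members, went to 2 with RLE factors, 1 with both covariates, 2 with DESeq2, 2 with the adipocyte covariate, 4 without the 8 PM libraries and 0 to 2 leaving out a replicate. The 30 calls among other antioxidant genes became 17 with no filter, 9 with lymphocyte, 1 with TEC, 8 with both and 18 with the adipocyte covariate, 9 above 400 CPM of lymphocyte markers, 12 with a log2 fold change above 1 as well, and 8 to 25 leaving out a replicate. The 9 cannot be set against the 30, because 4 PM, with 20 of the 30 higher and 2 lower in TAN, could not be tested above 400 CPM. Calls among all genes shifted as well, for the interaction from 1793 to 2 with TEC and to 4034 with DESeq2. The causes of these shifts were not tested.

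With the replicate number as a block within each time, the same 4 members were called at 4 PM and the interaction called 0. Between the diets, libraries of the same time and replicate number correlated above 0.1 in 7 of 24 pairs (median r 0.0418, range −0.32 to 0.484, 5000 genes). That check cannot exclude a shared litter or day, because the differences in tissue content between libraries also enter it. The block was not run for variation over time within a diet. The adipocyte covariate, the omission of the 8 PM libraries and the limit of 400 CPM were chosen after seeing the data.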
